A study of Mus musculus with 6 samples.

Results

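The 9 genes through which vascular endothelium senses and restrains clotting, F2r, F2rl1, F2rl3, F3, Thbd, Procr, Tfpi, Plat and Plau, were followed by RNA sequencing in endothelial cells of the embryonic mouse brain. They were found by exact gene symbol and make up 9 of the 22958 gene entries in the tables. The set was chosen by the measured fold change of F2r between the groups compared below, and the other 8 genes were added for their place in the same pathway with results of these data in view. The group values of all 9 are therefore a description, with no p-value. Where a member is said to be called or not called, this states its place in the fit over all genes and supports nothing about the set.

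The cells had been sorted as CD31+, PECAM1+ from C57BL/6 x 129/Sv embryos at E11.5 (days of embryonic development), after tamoxifen given to the mother at E9.5. Controls (3 libraries) carried the genotype Cdhrs5CreERT2:R26Axin1IL-/- and are described as having wildtype Axin1. The Axin1 group (3 libraries) carried Cdhrs5CreERT2:R26Axin1IL+/-, a tamoxifen-inducible Cre together with an Axin1 allele at R26, and is described as overexpressing Axin1. Axin1 holds together the protein complex that leads to beta-catenin breakdown, so the comparison bears on Wnt signalling in brain vessels. The Cre line and the tamoxifen were common to both groups. The labels number biological replicates but state no litters, pooling or share of cells recombined.

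Thrombin, the last protease of the clotting cascade, cuts the outer domain of protease-activated receptors (PARs), and the new end of the receptor then acts as its own ligand. In endothelium PAR1, the product of F2r, is the main thrombin receptor and couples to G proteins that act on calcium and on the cytoskeleton. The same cells hold clotting in check: thrombomodulin (Thbd) and the endothelial protein C receptor (Procr) turn thrombin towards activating the anticoagulant protein C, tissue factor pathway inhibitor (Tfpi) blocks the start of the cascade by tissue factor (F3), and the plasminogen activators Plat and Plau start fibrin removal.

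Levels of different genes are compared in RPKM, the length- and depth-scaled read values deposited by the authors. Counts and RPKM imply a gene length, which agreed within 1% between libraries for 68.2% of the 13648 entries with reads in all libraries. It ran from 3320 to 3331 bases for F2r and from 1815 to 1889 for Tfpi. RPKM is therefore not a plain rescaling of the counts for every entry, and the reason was not tested. Differences between groups are given in CPM, counts scaled to library size after TMM normalisation. Libraries held 10772492 to 14234409 reads. Axin1 (NM_001159598, NM_009733) stood at 25.03, 17.56 and 20.77 CPM in controls 1 to 3 and at 79.8, 62.2 and 66.2 CPM in Axin1 libraries 1 to 3, so the groups did not overlap and lay in the order the labels give. Pecam1, which encodes the sorted antigen, lay between 1182 and 1455 CPM. The summed level of 16 endothelial markers ranged from 9648 to 10013 CPM in the controls and from 9437 to 11348 CPM in the Axin1 libraries. Of these markers edgeR's quasi-likelihood test called 0, with 3 at an unadjusted p under 0.05 and 1 called by DESeq2. For pericytes, smooth muscle and mesenchyme, 14 marker genes were summed, with Myh11 and Des at 0 in a library. The sum was 55.3, 90.7 and 134.5 CPM in controls 1 to 3 and 115.3, 175.1 and 131.1 CPM in Axin1 libraries 1 to 3. Of the 13 tested, 11 were positive and 2 negative (median log2 0.64, against 0.02 over all tested genes). EdgeR and DESeq2 called 0 of the 13, and their part in the level of F2r was not tested. Summed markers of neural cells ranged from 290 to 475 CPM in controls and 343 to 369 CPM in Axin1 libraries (11 genes, Sox2, Hes5 and Sox1 at 0 in a library). Those of erythroid cells ranged from 740 to 3080 and 263 to 2722 CPM (9 genes, Klf1 at 0 in a library). Markers of macrophages and platelets were present in all libraries and differed most between Axin1 libraries 1 and 3, as given beside F2rl2 and Plau. All 14 tested macrophage markers were positive (median log2 1.1), and edgeR and DESeq2 called 0 of them. Of the 13 tested platelet markers, 10 were positive and 3 negative (median log2 0.06), with 0 called by edgeR and 1 by DESeq2.

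The cells transcribed most of this pathway. In the controls Tfpi had the highest level, at 95.4 ± 20.9 RPKM (SD, n = 3), above 94.9% of all entries or level with them. F2r followed at 48.0 ± 18.6 RPKM, Procr at 40.9 ± 5.21, F2rl3 at 34.9 ± 7.94, Plat at 27.8 ± 1.55, Thbd at 26.9 ± 3.25 and Plau at 10.2 ± 1.48 RPKM. The ranges of neighbours overlapped from F2r down to Thbd, and those of Tfpi and F2r, of Thbd and Plau, of Plau and F3 and of F3 and F2rl1 did not. F3 stood at 0.231 ± 0.135 RPKM, and F2rl1 had no read in any library. Of the 9 genes, 6 (Tfpi, F2r, Procr, F2rl3, Plat and Thbd) were at 20 RPKM or more in every one of the 6 libraries.

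In the Axin1 libraries the order changed at its head. F2r stood first at 158 ± 18.2 RPKM, above Tfpi at 103 ± 11.3 RPKM in 3 of 3 libraries with no overlap of their ranges. By mean level F2r moved from place 2093 to place 702 among all entries. F2rl3 (32.8 ± 2.57 RPKM), Procr (29.4 ± 3.60), Thbd (27.3 ± 3.43), Plat (22.7 ± 3.36) and Plau (18.5 ± 15.1) followed, each overlapping the next. F3 was again next to last at 0.567 ± 0.315 RPKM.

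**Figure D1:**
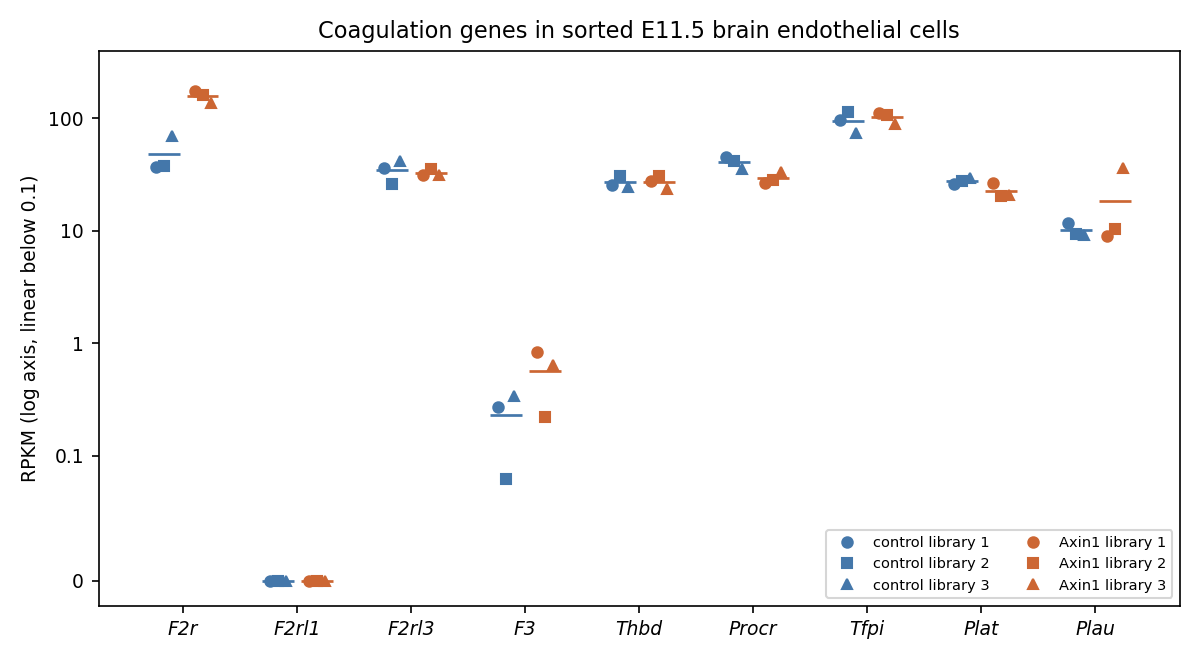
Deposited RPKM of the 9 genes (x axis) in each library, on a log axis that is linear below 0.1; symbols are single libraries and short bars are group means. F2r is the gene whose groups stand farthest apart (37.1 to 69.4 RPKM in controls, 139 to 175 RPKM in Axin1 libraries), and F2rl1 lies at 0 in all 6.

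The receptor genes come first. F2r (NM_010169) encodes PAR1, and its promoter is shown because it is the gene whose fold change between the groups selected the set. The sequence comes from RefSeq on GRCm38.p6, a later build than the mm9 of the submitters' processing notes. It runs from 250 to 31 bases before the annotated start, on the minus strand (chr13:95618497-95618716), and is printed 5′ to 3′ with a match to the AP-1 motif in capitals.
F2r: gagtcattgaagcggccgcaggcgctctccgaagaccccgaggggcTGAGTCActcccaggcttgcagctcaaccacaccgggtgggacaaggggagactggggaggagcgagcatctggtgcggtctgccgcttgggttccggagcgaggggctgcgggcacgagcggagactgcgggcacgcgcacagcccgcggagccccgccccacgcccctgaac
The 300-base windows of this table (250 bases before to 50 after a start) were searched on both strands for 4 motifs, which were picked after part of this sequence had been read. The TCF/LEF motif of beta-catenin's DNA-binding partners was searched as CTTTGAA or CTTTGAT or CTTTGTA or CTTTGTT, AP-1 as TGANTCA, the GC box as GGGCGG and the CACCC box of KLF factors as CACCC. The window of F2r held 0 TCF/LEF matches, 1 AP-1 match, 1 GC box and 3 CACCC matches. Of all 32851 windows 16.9% held the TCF/LEF letters, 7.81% AP-1, 35.7% the GC box and 57.5% CACCC, so the last 2 are common. There were 6 windows for 5 of the members, and in none of these were the TCF/LEF letters found. AP-1 letters were also in the windows of F3 (2 matches) and Procr (1 match). The window of F2rl2, which is no member, held 2 TCF/LEF and 2 AP-1 matches. A match describes the letters only.

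F2r read 126.8, 124.8 and 229 CPM in controls 1, 2 and 3 and 582.6, 524.5 and 462.7 CPM in Axin1 libraries 1, 2 and 3. Every Axin1 library lay above every control, and control 3 lay between the other two controls and the Axin1 libraries. The group means were 160 ± 59.6 and 523 ± 60.0 CPM, a fold of 3.27, and the fitted log2 fold change was 1.71 (SE 0.25, 95% confidence interval 1.12 to 2.30). It was number 6 by fold among the 45 genes called higher by edgeR's quasi-likelihood test, and number 89 among all 12661 tested genes. This is the value that selected the gene. Its place among the called genes depended on single libraries: with 1 left out, it was called without control 3 only, and not without control 1, control 2 or Axin1 library 1, 2 or 3. The log2 fold change in these 6 fits stayed between 1.56 and 2.04.

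F2rl3 (NM_007975), which encodes PAR4, the other thrombin receptor that can signal by itself, read 58.5, 41.0 and 64.8 CPM in the controls and 48.8, 54.8 and 49.5 CPM in the Axin1 libraries. All 3 Axin1 values lay inside the range of the controls (log2 -0.10, 95% confidence interval -0.51 to 0.30). The log2 fold change of F2r, 1.71, lies outside this interval, but it selected the set, so this is a description and no test. F2rl1 (NM_007974), which encodes PAR2, the receptor cut by trypsin-like proteases and by the tissue factor complex with factor VII, had 0 of 35537208 reads in the controls and 0 of 38446308 in the Axin1 libraries. A count of 0, taken as up to 3 reads of a pooled group, allows 0.0849 and 0.0777 CPM, counting error only.

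The remaining receptor of the family is no member of the set. F2rl2 (NM_010170) encodes PAR3, which in mouse platelets helps thrombin to cut PAR4. It read 83.8, 84.7 and 117 CPM in the controls and 40.7, 103 and 206 CPM in the Axin1 libraries, so the Axin1 libraries spanned both sides of the controls (log2 0.29, 95% interval -1.17 to 1.76). The summed level of 13 megakaryocyte and platelet markers had the same order in the Axin1 group, 824, 2169 and 2816 CPM in libraries 1, 2 and 3, against 1701 to 1879 CPM in the controls. None of the 13 was at 0 in any library, 12 were lowest in Axin1 library 1 and 11 highest in Axin1 library 3. The sums for macrophages (299, 1374 and 2983 CPM) and erythroid cells (263, 1309 and 2722 CPM) had this order in the Axin1 group too. Those for neural cells and for pericytes, smooth muscle and mesenchyme did not. The part of any of these cells in the level of F2rl2 was not tested.

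With all receptors on the per-length scale, the family sum was 106, 97.8 and 159 RPKM in controls 1 to 3 and 222, 239 and 253 RPKM in Axin1 libraries 1 to 3. F2r held 34.9%, 38.4% and 43.8% of that sum in the controls, where F2rl2 held 29.9% to 34.8% and F2rl3 26.4% to 34.3%. It held 78.6%, 67.4% and 54.8% in the Axin1 libraries. The ratio of F2r to F2rl3 within a library was 1.37 ± 0.32 in the controls and 4.83 ± 0.67 in the Axin1 libraries (SD, n = 3 each). The share held by F2rl3 went from 29.2% ± 4.45 to 13.8% ± 1.26 while its own level stayed within the control range. These shares use the same F2r values as above and add no support to them. In bulk samples a change in RNA per cell and a change in the share of cells that express a gene cannot be told apart.

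**Figure D2:**
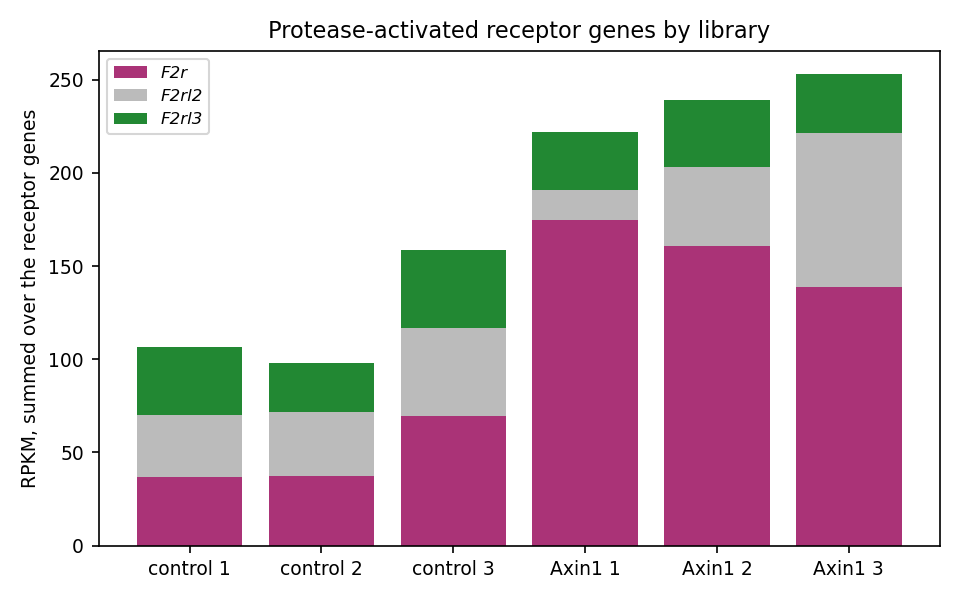
Summed RPKM (y axis) of the protease-activated receptor genes in each library (x axis), split by gene; F2rl1 is left out of the bars because it had no read. The F2r segment is larger in each Axin1 library than in any control, while the F2rl2 segment is smallest in Axin1 library 1 and largest in Axin1 library 3.

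Coding genes were put in order by start coordinate alone in RefSeq on GRCm38.p6, so overlapping genes are not told apart from separate ones. In this order F2r and F2rl1 are next to each other, and F2rl2 is 2 places away on the other side. Of the 10 protein-coding genes nearest to F2r in this order (5 on each side), 6 passed the count filter. None of these was called by edgeR over all genes, with 1 at an unadjusted p under 0.05 (Aggf1, an angiogenic factor gene) and 0 called by DESeq2. The scaffold protein gene Iqgap2 came between F2r and F2rl2 in this order. It read 11.03, 11.6 and 15.3 CPM in controls and 16.7, 13.6 and 33.6 CPM in Axin1 libraries (log2 0.75, edgeR adjusted p 0.316). Aggf1 read 27.5, 37.4 and 34.6 CPM against 24.61, 24.1 and 19.97 CPM, the opposite direction to F2r (log2 -0.53, edgeR adjusted p 0.176). S100z had no read in any library, and Crhbp and Sv2c were close to none.

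Tissue factor starts the extrinsic pathway of clotting and is kept low on resting endothelium. F3 (NM_010171) had 6, 2 and 7 reads in controls 1, 2 and 3 and 20, 6 and 14 reads in Axin1 libraries 1, 2 and 3. Axin1 library 2 lay inside the range of the controls, and the gene was under the count filter, so no fold change was fitted. Pooled, these were 15 reads or 0.424 CPM in the controls (exact Poisson 95% interval 0.238 to 0.70) and 40 reads or 1.04 CPM in the Axin1 libraries (0.74 to 1.41), intervals that cover counting error only.

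Among the anticoagulant members, the groups of Thbd and of Tfpi overlapped. Thbd (NM_009378) encodes thrombomodulin, the thrombin-binding cofactor of protein C activation. It read 98.6, 115 and 91.6 CPM in the controls and 104, 112 and 89.4 CPM in the Axin1 libraries, with the same mean of 102 CPM in both groups and the lowest value in Axin1 library 3. Its log2 fold change was 0.002 with a 95% confidence interval of -0.31 to 0.31, that is, between 0.81-fold and 1.24-fold. The sign of so small a value changed with DESeq2 and with its size factors.

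Tfpi (NM_011576, NM_001177320, NM_001177319), the inhibitor of the tissue factor complex, read 189, 212 and 134 CPM in the controls and 210, 190 and 167 CPM in the Axin1 libraries. The Axin1 values lay inside the control range (log2 0.09, 95% confidence interval -0.31 to 0.48). Control 3, which was highest of the controls for F2r, was the lowest library for Tfpi.

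Procr (NM_011171) encodes the receptor that presents protein C to thrombomodulin and that also lets activated protein C act through PAR1. It read 70.9, 63.7 and 53.0 CPM in the controls and 40.4, 42.1 and 50.9 CPM in the Axin1 libraries. Every Axin1 library lay below every control, with a narrow gap between Axin1 library 3 and control 3. The means were 62.5 ± 9.03 and 44.5 ± 5.67 CPM (log2 -0.49, SE 0.16, 95% confidence interval -0.85 to -0.14), and Procr was not called over all genes. A fit of the 4 libraries whose titles share a number, blocked on it, called Procr at -0.71 on the log2 scale. This 4-library fit called 1500 of its 12628 tested genes, against 107 of 12661 in the main fit, so nothing about Procr is read from its call. It leaves out control 3 and Axin1 library 3, the pair that lay closest.

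The plasminogen activators turn plasminogen into plasmin, which dissolves fibrin and also acts on matrix proteins. Plat (NM_008872), the tissue-type activator released by endothelium, read 69.0, 70.6 and 74.5 CPM in the controls and 68.2, 51.4 and 53.9 CPM in the Axin1 libraries. The groups did not overlap in CPM, but Axin1 library 1 lay just under the lowest control (log2 -0.30, SE 0.14, 95% confidence interval -0.62 to 0.01), and Plat was not called. In RPKM the groups overlapped, at 26.6 in Axin1 library 1 and 26.3 in control 1.

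Plau (NM_008873), the urokinase-type activator used in cell migration, read 28.8, 22.4 and 21.4 CPM in the controls and 21.6, 24.2 and 85.2 CPM in the Axin1 libraries. One library set its group mean: Axin1 libraries 1 and 2 lay inside the control range and Axin1 library 3 stood above all others. The log2 fold change was 0.85 (95% confidence interval -0.56 to 2.26) with all libraries and -0.08 without Axin1 library 3. That library also had the highest level of all 14 macrophage and microglia markers found, with a sum of 2983 CPM against 299 and 1374 CPM in Axin1 libraries 1 and 2 and 491 to 959 CPM in the controls. None of these markers was at 0 in any library. The platelet marker sum was also highest in Axin1 library 3, at 2816 CPM. The part of macrophages or platelets in the level of Plau was not tested.

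**Figure D3:**
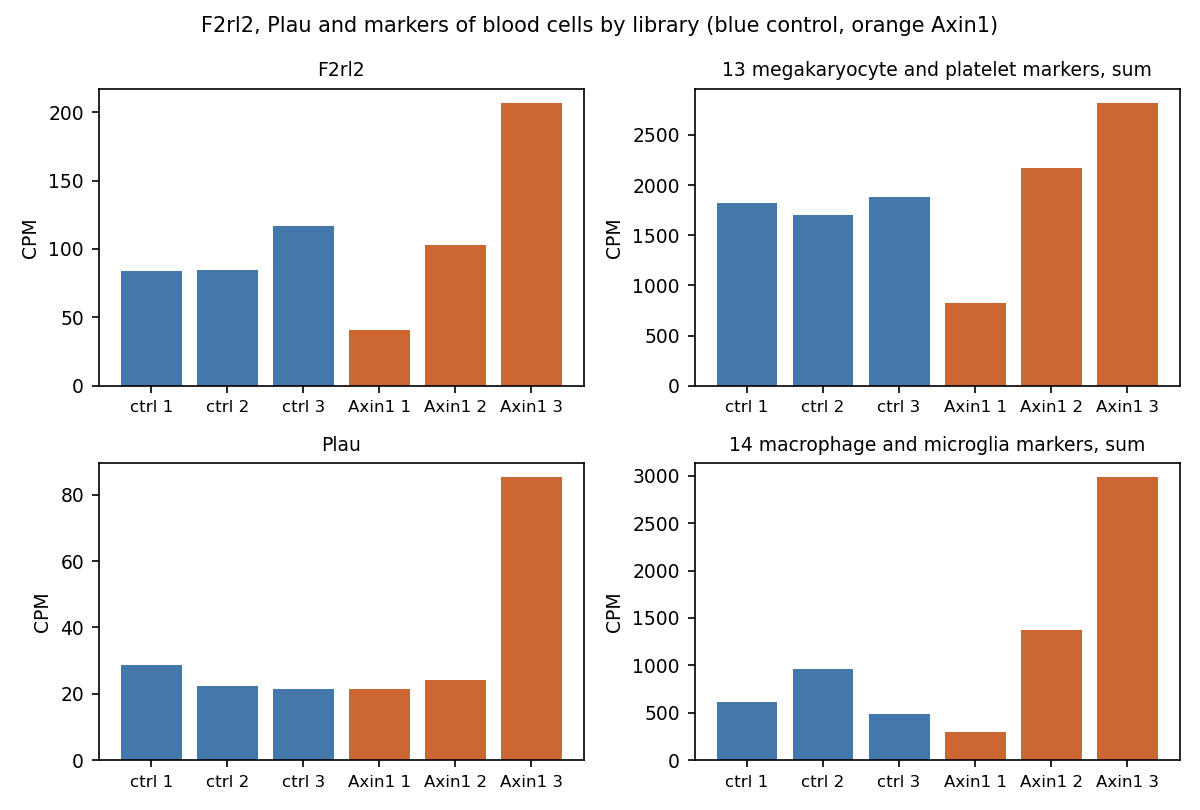
TMM-normalised CPM of F2rl2 and Plau (left) and summed CPM of the blood cell markers set beside each (right), by library (x axis; blue control, orange Axin1). F2rl2 and the platelet marker sum are both lowest in Axin1 library 1 and highest in Axin1 library 3. Plau and the macrophage marker sum are both highest in Axin1 library 3. Each marker sum is lowest in Axin1 library 1 and highest in Axin1 library 3, so neither pairing is particular to 1 cell type.

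Of the 9 members 7 passed the count filter and 1 of these, F2r, was called by edgeR over all genes, where 0.845% of all tested genes were called in either direction. The groups of 3 of the 7, F2r, Procr and Plat, did not overlap in CPM, against 23.8% of all tested genes. F2r was the higher of these 3 in the Axin1 libraries, and Procr and Plat were lower. Because the members were chosen with this contrast known, nothing is read from these shares.

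**Figure D4:**
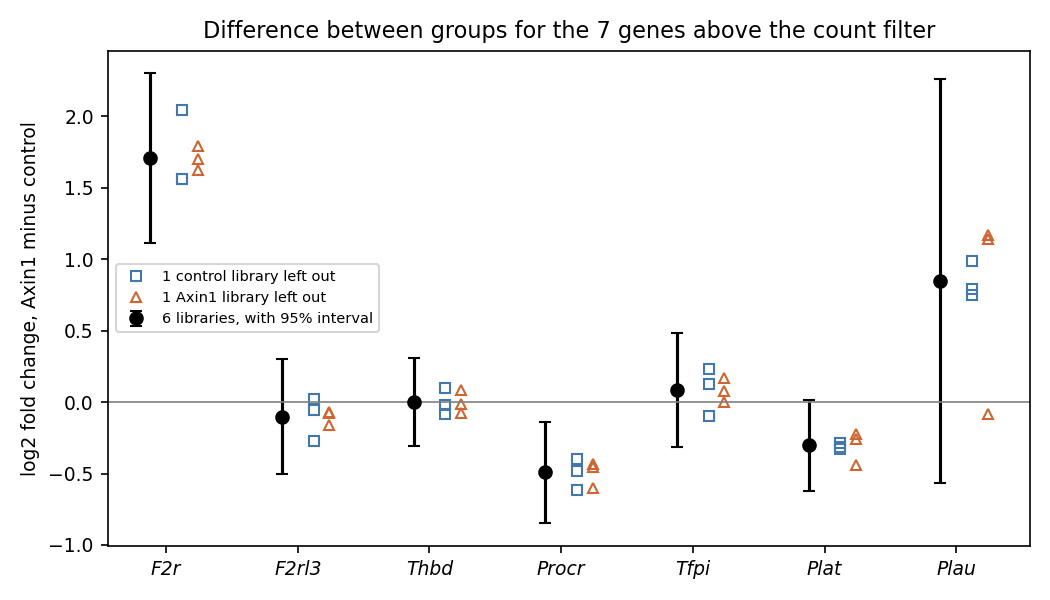
Fitted log2 fold change (y axis, Axin1 minus control) of the 7 genes that passed the count filter: black points with 95% confidence intervals use all 6 libraries, open symbols leave out 1 library. F2r stays between 1.56 and 2.04 and Procr below 0 in all 6 of these fits, and Plau drops to -0.08 without Axin1 library 3.

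The spread within a group differed between members. In the controls the coefficient of variation of the CPM was 3.92% for Plat, 11.8% for Thbd, 14.4% for Procr, 16.5% for Plau, 22.4% for Tfpi, 22.6% for F2rl3 and 37.2% for F2r. In the Axin1 libraries it ran from 6.39% for F2rl3 to 15.6% for Plat over 6 of the 7 tested members, F2r included, and was 82.5% for Plau. F2r was thus the most variable tested member among the controls and Plau among the Axin1 libraries.

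Genes with a pattern like that of F2r were ranked by Pearson correlation of log2 CPM over the 6 libraries, among 9568 genes. Ambra1, an autophagy regulator (r = 0.998), came first, then Lbh, a transcriptional cofactor (0.997), Pabpc4, a poly(A)-binding protein (0.996), the nucleosome-binding protein gene Hmgn1 (0.995) and the mitochondrial chaperone gene Hspa9 (0.995). These are values over 6 points that share the group split. Ambra1 had the same shape with a much smaller range, from 54.2 CPM in control 1 to 72.3 CPM in Axin1 library 1 (log2 0.31, edgeR adjusted p 0.222). Hmgn1 read 57.3, 57.6 and 86.4 CPM in the controls and 160, 172 and 151 CPM in the Axin1 libraries and was called by edgeR (log2 1.26, adjusted p 0.0347). With the group means removed, Snrnp40, Arhgap33, Slc39a6, Ambra1 and BC067068 followed F2r most closely (r from 0.998 to 0.999, 6 libraries). They are the highest of 9568 genes over few points, and no shared regulation is read from them. The largest log2 deviation of F2r was 0.575 in control 3, against -0.276 and -0.299 in controls 1 and 2. Snrnp40, a spliceosome gene, read 46.6, 46.6 and 89.0 CPM in controls 1 to 3, where F2r read 126.8, 124.8 and 229.

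The other genes of the pathway were taken from 6 lists of 114 genes besides the members, of which 113 were found and 89 passed the count filter. EdgeR's test over all genes called 0 of them higher and 2 lower, Ptgis and Vkorc1. DESeq2 called 4 higher and 2 lower. By comparison 0.355% of all tested genes were called higher and 0.490% lower. The median log2 fold change was 0.21 over these 89 genes and 0.02 over all tested genes. At an unadjusted p under 0.05 were 19 of the 89 genes, against 17.2% of all tested genes, and the 6 called by DESeq2 compare with 5.69%. Groups did not overlap for 22 of the 89, next to the 23.8% of all tested genes given above.

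Ptgis encodes prostacyclin synthase, which makes the platelet inhibitor of endothelium. It read 133, 128 and 144 CPM in the controls and 49.5, 54.6 and 55.2 CPM in the Axin1 libraries, so that every Axin1 library lay far below every control. It fell by 1.35 on the log2 scale (SE 0.11, edgeR adjusted p 0.00461). Of 6 fits that left out 1 library it passed in 4, and the edgeR adjusted p was over the threshold with control 2 (0.052) or Axin1 library 2 (0.0721) removed. Vkorc1 encodes the enzyme that recycles vitamin K, a cofactor in making several clotting factors and proteins C and S. It fell from 75.9, 74.9 and 77.9 CPM in the controls to 47.5, 52.4 and 48.8 CPM in the Axin1 libraries (log2 -0.62, SE 0.11, edgeR adjusted p 0.0492). With 1 library left out it passed only when that was control 3 (edgeR adjusted p 0.0299), and the other 5 fits gave edgeR adjusted p-values up to 0.208. It also missed the threshold with library totals in place of TMM (edgeR adjusted p 0.0565) and without the robust fit (0.0596).

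Of 23 tested PAR partners, which are the G proteins, arrestins, kinases and sphingosine phosphate receptors through which PAR1 acts, and F2rl2, edgeR called 0. There were 4 at an unadjusted p under 0.05 and 1 called by DESeq2 (median log2 0.11). Those with the highest levels were the small GTPase gene Rhoa, Gnai2, an inhibitory G protein subunit, and S1pr1, the sphingosine phosphate receptor that tightens endothelial junctions. Rhoa stood at 428 ± 4.17 and 504 ± 80.6 CPM (log2 0.23, edgeR adjusted p 0.395). Gnai2 stood at 425 ± 4.16 and 376 ± 17.8 CPM (log2 -0.18, edgeR adjusted p 0.368), and S1pr1 at 484 ± 61.6 and 444 ± 43.6 CPM (log2 -0.12, edgeR adjusted p 0.668).

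Besides Vkorc1, none of the 14 tested procoagulant genes was called by edgeR, with 4 of the 14 at an unadjusted p under 0.05 and 2 called by DESeq2 (median log2 0.13). The protein disulfide isomerase gene P4hb stood at 925 ± 187 and 1165 ± 59.5 CPM (log2 0.33, edgeR adjusted p 0.286). The fibrin-crosslinking factor gene F13a1, which macrophages and platelets also express, read 74.4, 145 and 97.7 CPM in the controls and 47.3, 207 and 613 CPM in the Axin1 libraries (log2 1.45, edgeR adjusted p 0.498). Its lowest and highest values fell in the libraries with the lowest and highest macrophage and platelet marker sums given above. The part of these cells was not tested. The fibrinogen genes Fga, Fgb and Fgg had no read in any library.

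Besides Ptgis, none of the 15 tested anticoagulant genes was called by edgeR, with 5 of the 15 at an unadjusted p under 0.05 and 1 called by DESeq2 (median log2 0.26). Pros1, which encodes protein S, the cofactor of activated protein C, read 99.6, 117 and 163 CPM in the controls and 168, 209 and 180 CPM in the Axin1 libraries (log2 0.55, edgeR adjusted p 0.187). Without control 3 its edgeR adjusted p was 0.021. Anxa5, the phosphatidylserine-binding annexin, stood at 797 ± 72.0 and 802 ± 57.0 CPM (log2 0.01, edgeR adjusted p 0.978).

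Of 10 tested genes of fibrinolysis and pericellular proteolysis besides Plat and Plau, edgeR called 0, with 2 at an unadjusted p under 0.05 and 2 called by DESeq2 (median log2 0.20). The annexin A2 and S100A10 proteins form the endothelial receptor on which plasmin is made. Anxa2 stood at 1453 ± 74.4 and 1295 ± 100 CPM (log2 -0.17, edgeR adjusted p 0.437), and S100a10 at 102 ± 16.8 and 116 ± 11.1 CPM (log2 0.19, edgeR adjusted p 0.563). The enolase gene Eno1, another plasminogen-binding protein, was at 5.49 and 4.33 CPM but at a mean of 112 RPKM. Enolase has near-identical copies, but their part in this gap was not tested. The count of Eno1 is reported as uncertain (log2 -0.34, edgeR adjusted p 0.571).

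Of 23 tested genes known to respond to thrombin in endothelium, edgeR called 0, with 4 at an unadjusted p under 0.05 and 0 called by DESeq2. Their median log2 fold change was 0.63, and 16 were positive and 7 negative. Those with the highest levels varied as much within the controls as between the groups. The adhesion molecule gene Icam1 read 658, 326 and 253 CPM in the controls and 572, 349 and 569 CPM in the Axin1 libraries (log2 0.27, edgeR adjusted p 0.789). The nuclear receptor gene Nr4a1 stood at 438 ± 192 and 366 ± 76.1 CPM (log2 -0.26, edgeR adjusted p 0.73), and the early response gene Ier3 at 148 ± 103 and 204 ± 106 CPM (log2 0.47, edgeR adjusted p 0.775). Several genes of this list are also expressed by macrophages, and the part of the macrophage markers in its median was not tested.

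Of the 4 KLF factors, among which Klf2 and Klf4 are known to raise Thbd, edgeR called 0, with 0 at an unadjusted p under 0.05 and 0 called by DESeq2 (median log2 0.22). Klf2 stood at 35.3 ± 10.4 and 28.0 ± 3.42 CPM (log2 -0.33, edgeR adjusted p 0.499), Klf6 at 694 ± 227 and 1128 ± 331 CPM (log2 0.70, edgeR adjusted p 0.305), and Klf10 at 174 ± 6.98 and 231 ± 65.8 CPM (log2 0.41, edgeR adjusted p 0.341).

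**Figure D5:**
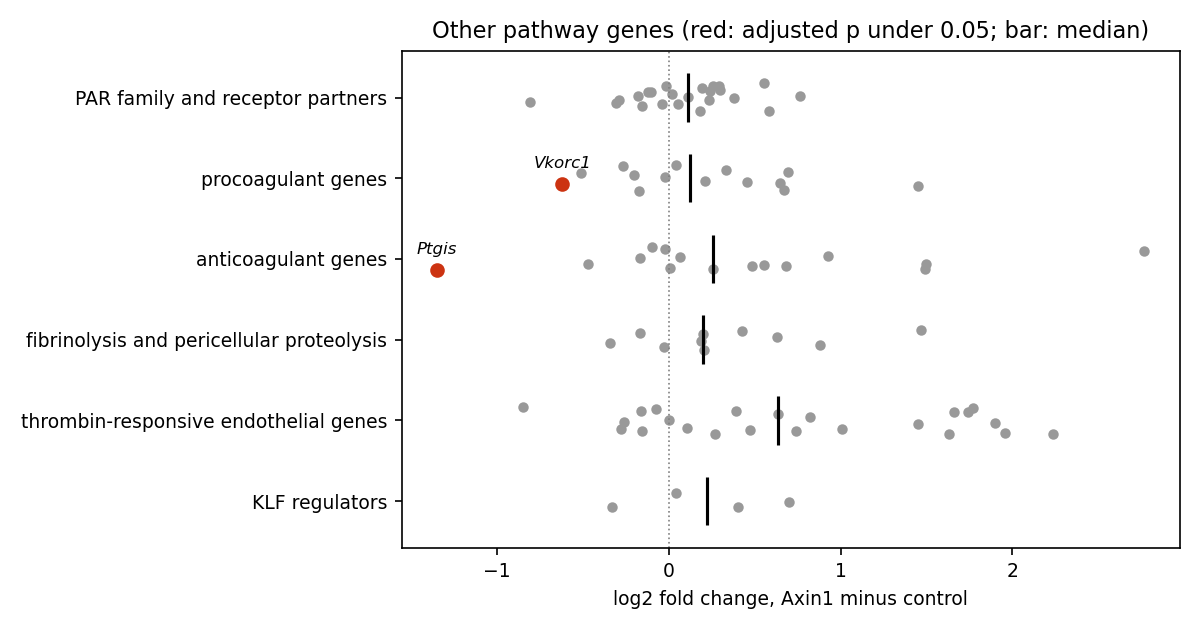
Log2 fold change (x axis, Axin1 minus control) of the other pathway genes that passed the count filter, 1 point a gene, by list (y axis); vertical bars are list medians, and red points had an edgeR adjusted p under 0.05. Ptgis and Vkorc1, both lower in the Axin1 libraries, are the 2 called genes.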

How the data were processed

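For each library the authors gave raw counts and RPKM by RefSeq gene, per the file headers. Alignment used Bowtie on mm9, per the submitters' processing notes; no source used here names the counting program or its strand setting. Deposited counts went into the tests and deposited RPKM into levels between genes.

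Genes were kept with filterByExpr (minimum count 10, minimum total 15; 12661 genes). Groups were compared in R 4.3.3 with the quasi-likelihood test of edgeR 4.0.16 (TMM, robust fit, group as the only term). P-values were adjusted by Benjamini-Hochberg over these genes and called at 0.05. CPM used TMM library sizes. The SE was the log2 fold change divided by the root of F. Alternatives were DESeq2 1.42.0, other scalings and filters, limma 3.58.1 on log2(RPKM + 1) or log2(RPKM + 0.1), replicate blocks, and leaving out each library. In simulated counts for this comparison (12454 genes), 2 of 50 genes changed 1.5-fold, 25 of 50 changed 2-fold and 48 of 50 changed 4-fold were recovered, with 11 false calls. Each simulated gene was drawn independently, and changed genes were not taken from those at low levels. No deviation shared by many genes of a library was simulated, so these recovered shares hold for that setting only. In the real data no 2 libraries agreed within counting noise. P-values measure the spread between these libraries only.

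The members, lists and motifs were chosen with earlier results of these data known. Named genes were the members, F2rl2, Axin1 and Pecam1, called genes of the lists and otherwise the 3 of each list with the highest mean RPKM, the 5 genes most like F2r by each measure (mean of at least 5 CPM), and neighbours of F2r. Other genes were named after their values were seen. No exon of the members or F2rl2 overlaps another gene's in the GRCm38 annotation.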

Additional observations from a re-analysis of the deposited data

How the results depend on the processing

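The log2 fold change of F2r ranged from 1.56 to 2.13 over 15 alternatives, 9 past the threshold; the choice of the gene fixes its sign, which is no sign of stability. With the biological replicate number as a block it was 1.76 and missed the threshold. Leaving out each library gave 1.56 to 2.04. By mean RPKM F2r was second of the 9 members in the controls, and it was number 3 by the median and 2 to 3 when a control was left out. In edgeR's count of called genes (107, 45 higher and 62 lower), DESeq2 gave 720 (401 and 319), no low-count filter 197, no robust fit 51, the 4 libraries that share a title number with that number as a block 1500 (969 and 531), and leaving out a library 0 to 695 (513 and 182 without control 3). The 2 called pathway genes became 6 with DESeq2 (4 higher, 2 lower), 1 on library totals, 1 without the robust fit, 1 with the 6-library replicate block (Vkorc1 missed, edgeR adjusted p 0.0759), 17 with the 4-library block (14 higher, 3 lower) and 0 to 8 when a library was left out. The counts of 0 came without control 2 (1539 of all tested genes and 11 pathway genes at an unadjusted p under 0.05) and without Axin1 library 2 (1733 and 17). The labels do not say whether replicate numbers pair the libraries, and the main fit used no pairing. Same-numbered libraries 1, 2 and 3 had correlations of their deviations of 0.234, 0.152 and -0.023. Control 1 with Axin1 library 2 gave -0.215 and control 2 with Axin1 library 1 gave -0.249. Control 2 with Axin1 library 3 gave 0.175. Deviations sum to 0 within each group, so these correlations are tied to each other and nothing about pairing is read from them. Title numbers are shared within replicates 1 and 2 but not within replicate 3. Signs turned for F2rl3, Thbd, Tfpi and Plau. F2rl3 gave 0.0742 in the 4-library block and -0.275 to 0.0219 over the fits that left out a library, Thbd -0.00526 with DESeq2, -0.00527 with its size factors, -0.0057 with no filter and -0.0811 to 0.0978 with a library left out. Tfpi gave -0.00552 in the 4-library block and -0.0956 to 0.228 with a library left out, and Plau -0.156 and -0.0811 to 1.17. The cause was not tested. Depth limits F3 (2 to 20 reads a library) and F2rl1.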

Other observations

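Control 3 stood apart from controls 1 and 2 in several genes of the lists, named here after their values were seen. For the protease nexin gene Serpine2, an inhibitor of thrombin and of plasminogen activators, the controls read 31.0, 23.2 and 85.5 CPM and the Axin1 libraries 132, 156 and 106 CPM (log2 1.5, edgeR adjusted p 0.245). For the gelatinase gene Mmp2 they read 79.5, 71.0 and 174 CPM and 323, 348 and 227 CPM (log2 1.47, edgeR adjusted p 0.15). In both, as for F2r, control 3 lay above the other controls and below every Axin1 library. Of 6 fits that left out 1 library, the fit without control 3 called 8 of the 90 pathway genes then tested, 6 higher and 2 lower. Over all 12932 genes tested in that fit, 695 were called, 513 higher and 182 lower, so nothing about the pathway is read from the 8.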
